A study of Mus musculus with 8 samples.

Results

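Genes of homologous recombination and of the Fanconi anaemia pathway were followed in myeloid cells sorted from mouse bone marrow. The 34 genes were taken as a named list, and each was read from the brightest of its probe sets with a single gene symbol, judged by the mean level of the 8 arrays. Of the 34, 32 were measured, among 18193 genes in all. Rbbp8 and Xrcc2 were not analysed here.

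Homologous recombination repairs broken DNA by copying an intact sister chromatid, and it acts mainly in S and G2 phase. The ends are resected to single-stranded tails, Brca2 and its partners prepare these tails to invade the sister, and the joined molecules are then dissolved or cut apart. The Fanconi proteins detect crosslinked DNA at stalled replication forks, where a core complex ubiquitinates Fancd2 and Fanci, and they hand the break to the recombination proteins. In bone marrow, loss of this pathway causes the progressive failure of blood formation that defines Fanconi anaemia.

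The control group held 4 samples of genotype E2F1-/-2+/+3f/f, and the experimental group held 4 samples of genotype Mxcre;E2F1-/-2-/-3f/f. All mice therefore lacked E2f1 and carried floxed E2f3. The experimental mice also lacked E2f2 and carried Mxcre, a Cre transgene whose promoter is induced by interferon, so effects of Cre itself and of the E2f genotype cannot be told apart. All mice were of a mixed FVB and C57BL6 background and 8 weeks old. They were given 5 injections of 250 µg of pIpC, which induces interferon, on alternate days, and were killed 24 h after the last. The cells were sorted by FACS on Cd11b, and RNA was hybridised to Affymetrix arrays that give a log2 level per probe set. The comparison addresses which genes of this repair pathway change when the activating E2F factors E2f2 and E2f3 are targeted beside E2f1. The labels do not state that each sample came from a separate mouse, and the p-values reflect only how far these samples scatter, a scatter that may be technical.

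The sort and the genotype were checked first. Itgam, which encodes Cd11b, stood at 11.58 ± 0.07 in the control group and at 11.54 ± 0.27 in the experimental group (SD, n = 4). Of 10 myeloid markers, Itgam among them, 8 differed below 0 and 2 above. In that list 1 was called lower, Csf3r (-0.65, limma adjusted p = 0.00943), and none higher. E2f2 was lower at probe set 1455790_at, from 7.92 ± 0.19 to 7.26 ± 0.21 (limma adjusted p = 0.0351), and at 1436434_at it read 9.85 ± 0.28 and 9.31 ± 0.21 (adjusted p = 0.107). At 1417878_at E2f1, which neither group should carry intact, gave 6.86 ± 0.16 in controls and 7.44 ± 0.54 in experimental samples (adjusted p = 0.236), and its other 2 probe sets did not pass. E2f3 read 7.60 ± 0.11 and 7.88 ± 0.15 at 1434564_at (adjusted p = 0.201). The position of the probes against the deleted exons was not analysed here. Markers of B cells were lower in experimental samples (5 of 11 past the threshold), as were those of dendritic cells (5 of 10) and megakaryocytes (3 of 9), and none of 10 erythroid or 9 T and NK cell markers passed (2 erythroid and 4 T and NK cell markers were higher, and none lower, at an unadjusted limma p of 0.05). With replicate number as a block in the fit, 1 erythroid marker (Alas2) and 2 T and NK cell markers (Nkg7 and Cd247) were called higher. In sorted bulk samples, fewer cells of a type and less RNA per cell cannot be told apart.

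Promoters of the pathway are shown first, because E2F factors are what the study targeted and some of these promoters carry E2F motifs. Promoters from RefSeq on GRCm38.p6, each 250 bases before to 50 after a gene's start, were found for 26 of the 32 genes. They were searched on both strands for the 8-base E2F motifs TTTCCCGC, TTTCGCGC, TTTGCCGC and TTTGGCGC. Bard1, Brca2, Fancg and Rad51c held such a motif, 4 of 26 genes or 15.4%, beside 3.81% of 14453 genes on the array and 2.26% of all 32851 promoters in the table. Capitals mark the motif on either strand, and each line runs 5′ to 3′ on the gene's strand. Rad54l held none of these motifs, and capitals mark in it the 6-base core GCGGGA, the other strand of TCCCGC.

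Fancg, minus strand, chr4:43010310-43010389: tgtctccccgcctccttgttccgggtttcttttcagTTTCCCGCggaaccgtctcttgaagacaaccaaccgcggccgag
Brca2, plus strand, chr5:150522417-150522496: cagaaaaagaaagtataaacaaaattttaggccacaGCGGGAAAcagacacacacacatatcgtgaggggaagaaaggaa
Rad51c, minus strand, chr11:87404945-87405024: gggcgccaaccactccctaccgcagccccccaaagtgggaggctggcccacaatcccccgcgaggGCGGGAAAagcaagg
Bard1, minus strand, chr1:71103138-71103217: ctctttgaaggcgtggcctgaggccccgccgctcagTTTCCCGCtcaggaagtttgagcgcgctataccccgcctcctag
Rad54l, minus strand, chr4:116123690-116123769: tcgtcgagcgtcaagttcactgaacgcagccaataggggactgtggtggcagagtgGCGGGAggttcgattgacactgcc

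The motif began at position -52 from the start in Fancg, -168 in Brca2, -5 in Rad51c and -209 in Bard1. A second annotated start of Rad51c held TTTCGCGC from position 12 after it. With the last 6 bases of any of these motifs as a core, 21 of the 26 genes had a match, or 80.8%, beside 55.8% of genes on the array. Among replication genes (the Mcm helicase, Cdc6, Cdt1 and others), 7 of 14 with a promoter held an 8-base motif, and among mitosis genes 1 of 13 did. A match is a string of letters and does not show that a factor binds there.

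Few of the recombination and Fanconi genes passed the test. With limma at adjusted p 0.05, 1 of 32 rose, Rad54l, and none fell. Among all genes 1.53% were called higher and 1.95% lower, so the count of calls in the list was near the background. At an unadjusted p of 0.05, 11 of the 32 were higher and 3 lower, beside 9.08% and 9.8% of all genes. In 9 genes every experimental array lay above every control array, beside 5.62% of all genes, and in 3 every experimental array lay below, beside 6.79%. The median log2 difference was 0.12, against 0.01 for all genes, and came to 0.09 in replicates 1 and 2 and to 0.17 in replicates 3 and 4. The differences ran from -0.40 for Rad52 to 0.64 for Rad54l, and no 95% confidence interval of the 32 reached a 2-fold change in either direction.

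Control and experimental arrays that carry the same replicate number tended to deviate in the same genes (r = 0.20 to 0.26 over all probe sets), and the numbers were treated as pairs. Arrays of different number but the same style of sample code correlated about as much (0.14 to 0.26), so number and code style are not well separated here. With replicate number as a block, 4 of the 32 passed, all higher: Rad54l, Fancg, Blm and Brca2. With that block 3.16% of all genes were called higher and 3.02% lower. Within pairs, 14 of the 32 genes were higher in the experimental array of all 4 pairs, beside 15.5% of all genes. Brip1, Rad52, Mus81 and Fancb were lower in all 4, beside 15.7%.

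**Figure D1:**
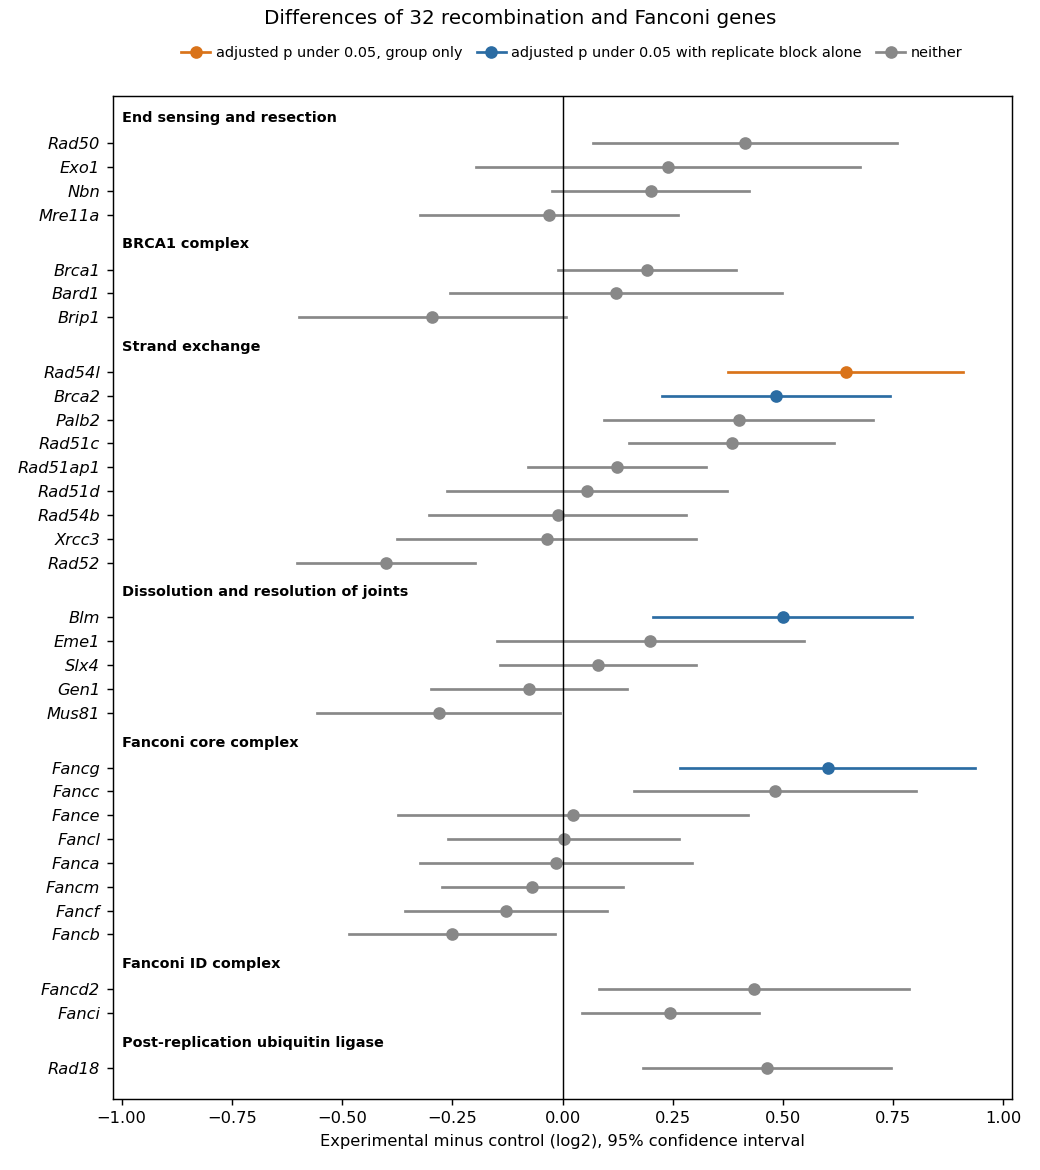
Experimental minus control differences (log2, x axis) of the 32 measured genes with 95% confidence intervals of the limma fit, grouped by role (n = 4 arrays per group). Rad54l (0.64) is the gene past adjusted p 0.05 in the fit with group alone, Fancg, Blm and Brca2 pass with replicate number as a block, and Rad52 (-0.40) is the lowest.

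The strand exchange step held the gene that passed. Rad54l encodes a DNA translocase that helps the broken end to pair with the sister. Its level was 8.36, 8.17, 8.50 and 8.44 in control replicates 1 to 4 and 8.94, 8.79, 9.21 and 9.12 in the experimental ones. The lowest experimental array stood above the highest control, a difference of 0.64 ± 0.12 (SE, n = 4 per group) or 1.56-fold (adjusted p = 0.0256, and 0.0114 with the replicate block). The 3 dimmer probe sets of Rad54l differed in the same direction, by 0.38 to 0.62, and none of them passed, while 1423123_at (adjusted p = 0.0143) and 1423124_x_at (0.0236) did with the replicate block. The call of Rad54l held without control replicate 3 (adjusted p = 0.0432) or experimental replicate 2 (0.0187). It was lost without control replicate 1 (0.0771), 2 (0.0813) or 4 (0.0686) and without experimental replicate 1 (0.0543), 3 (0.0524) or 4 (0.0719), with the most variable probe set (0.116), and in replicates 1 and 2 alone (0.138) or 3 and 4 alone (0.0682), while its difference stayed between 0.55 and 0.72 in all 19 alternatives. Rad54l lies on chromosome 4, as E2f2 does, 298 measured genes away from it. Fancg, Nbn and Rad54b are on chromosome 4 too, 670, 773 and 792 measured genes from E2f2. Fancc is on chromosome 13, 259 measured genes from E2f3. Rad54b, the relative of Rad54l, was read at 5.28 ± 0.13 and 5.27 ± 0.24 and differed by -0.01 (95% confidence interval -0.30 to 0.28).

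Brca2, which acts on resected DNA before strand invasion, read 7.75, 7.59, 8.04 and 7.98 in controls and 8.38, 8.26, 8.26 and 8.40 in experimental samples. The groups did not overlap, and the difference was 0.48 ± 0.12 (SE, adjusted p = 0.0624). It passed with the replicate block (adjusted p = 0.0490). Control replicates 1 and 2 were the low arrays, and the difference came to 0.65 in replicates 1 and 2 but 0.32 in replicates 3 and 4. Palb2, the partner that joins Brca2 to Brca1, read 6.52, 6.38, 6.61 and 6.61 against 6.73, 6.66, 7.12 and 7.20, also without overlap (0.40 ± 0.14, adjusted p = 0.167, and 0.0719 with the block).

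Rad51c, which acts in strand exchange, read 7.05, 7.06, 7.35 and 7.17 in controls and 7.51, 7.64, 7.63 and 7.39 in experimental samples. Its groups lay close but apart (0.38 ± 0.10, adjusted p = 0.0920). At its second probe set, 1423026_at, they overlapped (0.21, adjusted p = 0.547). Rad51d (0.05, interval -0.26 to 0.37) and Xrcc3 (-0.04, interval -0.37 to 0.30) overlapped between the groups. A dimmer probe set of Xrcc3, 1437623_x_at, differed by 0.19 without overlap (adjusted p = 0.379). Rad51ap1, which stimulates strand invasion, differed by 0.12 with an interval of -0.08 to 0.33.

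Rad52 had the lowest difference of the list. It anneals single strands, and in mammals it serves as a backup to Brca2. Its level was 7.16, 6.95, 6.88 and 7.08 in controls and 6.60, 6.60, 6.66 and 6.61 in experimental samples. The experimental arrays lay close together and below every control, a difference of -0.40 ± 0.09 (SE) with an adjusted p of 0.0506, just short of the threshold. It passed when the probe sets below the median level were left out (adjusted p = 0.0436), with array weights (0.0401) and with code style as a block (0.0358), and did not with the replicate block (0.0608), the mean of its probe sets (0.0944) or any array left out (0.0569 to 0.141). Its second probe set, 1416602_a_at, differed by -0.08 (adjusted p = 0.734).

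**Figure D2:**
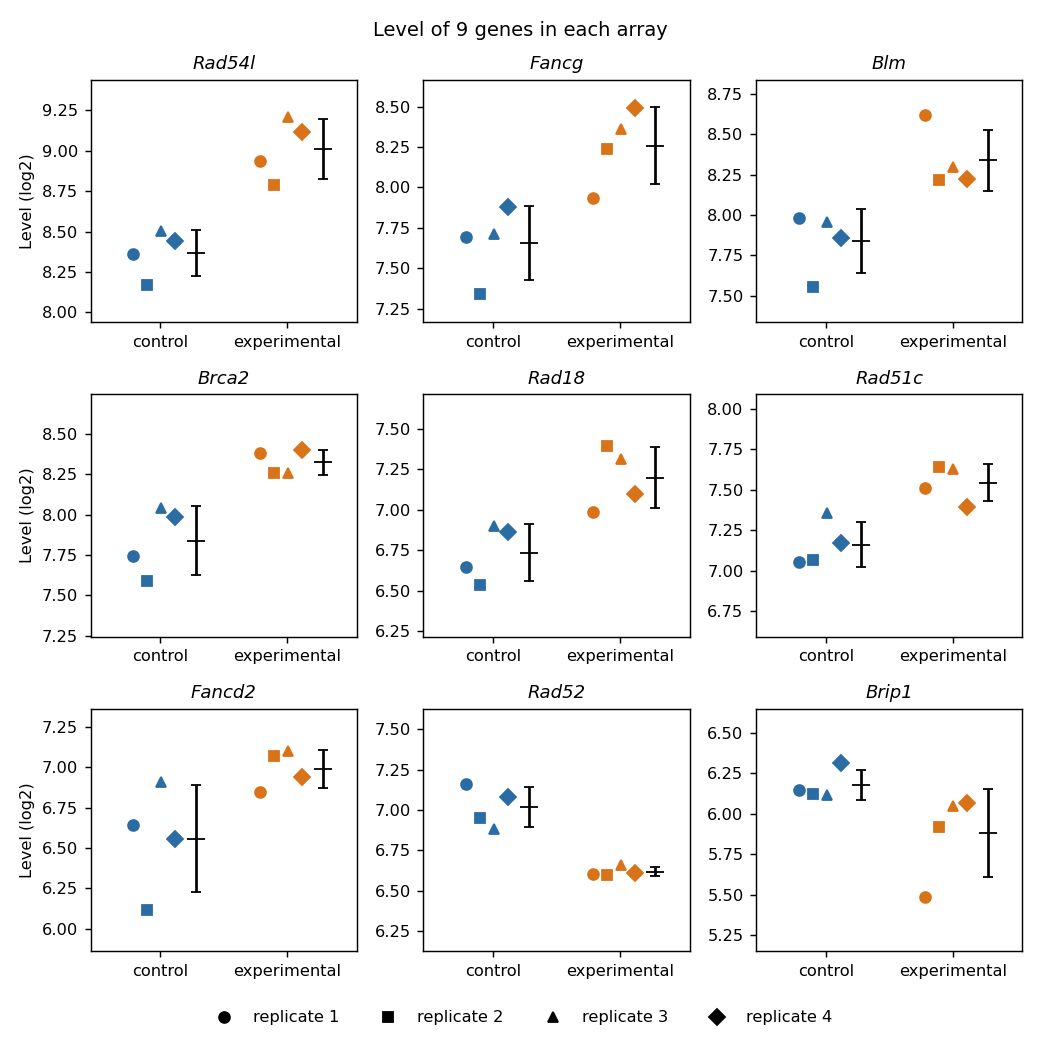
Log2 level (y axis, each panel spanning 1.5 units) of 9 genes in each array, with controls in blue, experimental samples in orange and a symbol per replicate number; black bars give mean ± SD (n = 4). Groups do not overlap in Rad54l, Fancg, Blm, Brca2, Rad18, Rad51c, Rad52 or Brip1, while the highest control of Fancd2, replicate 3 at 6.91, exceeds the lowest experimental array at 6.85.

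None of the 5 enzymes and scaffolds that undo the joined molecules passed in the fit with group alone. Blm is the RecQ helicase that dissolves double Holliday junctions without crossover. It read 7.98, 7.56, 7.96 and 7.86 in controls and 8.62, 8.22, 8.30 and 8.22 in experimental samples, with experimental replicate 1 the highest. The groups were apart by 0.50 ± 0.13 (SE, adjusted p = 0.0845), and Blm passed with the replicate block (adjusted p = 0.0368). Mus81, a nuclease that cuts such joints, read 6.83, 6.94, 7.19 and 6.90 in controls and 6.39, 6.78, 6.79 and 6.77 in experimental samples (-0.28 ± 0.12, adjusted p = 0.284). Its groups did not overlap, but the probe set is of the kind that can match several transcripts (_s_at), and experimental replicate 1 was far below the other 3. A second probe set of Mus81, 1431885_a_at, differed by -0.24, with overlapping groups (adjusted p = 0.310). Eme1, the partner of Mus81, differed by 0.20 (interval -0.15 to 0.55), the nuclease gene Gen1 by -0.08 (interval -0.30 to 0.15), and Slx4, the scaffold for such nucleases, by 0.08 (interval -0.14 to 0.30).

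None of the genes that sense and resect ends passed. Rad50, of the Mre11-Rad50-Nbn complex, read 7.43, 7.36, 7.67 and 7.60 in controls and 7.91, 7.52, 8.04 and 8.25 in experimental samples. Experimental replicate 2 lay among the controls, and the difference of 0.41 ± 0.15 had an adjusted p of 0.204, which became 0.0456 without that array. Mre11a (-0.03, interval -0.32 to 0.26) and Nbn (0.20, interval -0.02 to 0.42) are its partners in the same complex. Exo1, the exonuclease that extends resection, differed by 0.24 with a wide interval of -0.20 to 0.68.

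None of the 3 genes of the Brca1 complex passed. Brca1, the ubiquitin ligase that promotes resection and brings in Palb2, read 8.44, 8.24, 8.37 and 8.45 in controls and 8.49, 8.51, 8.67 and 8.60 in experimental samples. Every experimental array was above every control, yet the gap was small (0.19 ± 0.09, adjusted p = 0.318). At the dimmer probe sets of Brca1 the groups overlapped (0.26, 0.23 and -0.03). Bard1, the obligate partner of Brca1, read 5.25 ± 0.22 and 5.37 ± 0.31 (SD), with an interval of the difference of -0.26 to 0.50. Brip1, the helicase that binds Brca1, read 6.15, 6.12, 6.12 and 6.31 in controls and 5.48, 5.92, 6.05 and 6.07 in experimental samples. All 4 experimental arrays lay below the controls, with replicate 1 lowest (-0.30 ± 0.14, adjusted p = 0.306).

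The Fanconi core complex has 8 genes here, and none passed in the fit with group alone. Fancg, a scaffold subunit, read 7.69, 7.34, 7.71 and 7.88 in controls and 7.94, 8.24, 8.36 and 8.49 in experimental samples. The groups did not overlap, and the difference was 0.60 ± 0.15 (SE), or 1.52-fold (adjusted p = 0.0704). It passed with the replicate block (adjusted p = 0.0346), and a second probe set gave 0.63 (adjusted p = 0.0746). Fancg is also on chromosome 4, 670 measured genes from E2f2.

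Fancc, which sits in the core complex beside Fance and Fancf, read 6.68, 6.05, 6.32 and 6.51 in controls and 6.87, 6.66, 7.01 and 6.94 in experimental samples. Control replicate 1 lay just above experimental replicate 2 (0.48 ± 0.14, adjusted p = 0.119, and 0.0538 with the block), and its 2 dimmer probe sets differed by 0.11 and -0.06. The other 6 core genes overlapped between the groups. Fancl, the ubiquitin ligase of the complex, differed by 0.00 (interval -0.26 to 0.26), Fanca by -0.01 (-0.32 to 0.29), Fance by 0.02 (-0.37 to 0.42), the translocase gene Fancm by -0.07 (-0.27 to 0.14), Fancf by -0.13 (-0.36 to 0.10) and Fancb by -0.25 (-0.49 to -0.02, adjusted p = 0.257). A dimmer probe set of Fancb, 1446226_at, differed by 0.03 (adjusted p = 0.931).

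Fancd2 and Fanci, the pair that the core complex ubiquitinates, were both above 0 but did not pass. Fancd2 read 6.64, 6.11, 6.91 and 6.56 in controls and 6.85, 7.07, 7.10 and 6.94 in experimental samples (0.43 ± 0.16, adjusted p = 0.193), and its controls spread widely. Fanci read 7.66, 7.51, 7.70 and 7.59 in controls and 7.89, 7.98, 7.77 and 7.81 in experimental samples, without overlap (0.24 ± 0.09, adjusted p = 0.196). At its dimmer probe set, 1425941_a_at, the groups overlapped (0.14, adjusted p = 0.795). Rad18, the ligase that ubiquitinates PCNA at stalled forks, read 6.64, 6.53, 6.90 and 6.87 in controls and 6.99, 7.39, 7.31 and 7.10 in experimental samples. Its groups did not overlap at this probe set (0.46 ± 0.13, adjusted p = 0.0923). All 4 probe sets of Rad18 were higher, by 0.46 to 0.68, and 1435826_at passed (0.68 ± 0.13, or 1.61-fold, adjusted p = 0.0263).

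For 19 of the 32 genes (59.4%) the 95% confidence interval lay within 1.5-fold in either direction, beside 73.2% of all genes. Among the 19 were Brca1, Rad51ap1, Mus81, Fanca, Fancl, Fancm and Fanci. Of the 23 genes with several probe sets, 13 had all of them on the same side of 0 and 10 did not. Over all 71 probe sets of the 32 genes, 2 were called higher, those of Rad54l and Rad18, and none lower. With the replicate block 9 were called higher, of Rad54l (3), Fancg (2), Rad18 (2), Blm and Brca2, and none lower. Shares called among all probe sets were not computed, nor the share of all genes with probe sets on the same side. At 1 probe set per gene, 1.53% of all genes were called higher and 1.95% lower, and 3.16% and 3.02% with the block.

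The arrays also differed in ways that the genotype does not explain. Replicates 1 and 2 of each group carry sample codes of a digit and a letter, and replicates 3 and 4 codes of a letter and digits. In 25 of the 32 genes the level was higher in replicates 3 and 4 than in 1 and 2 in both groups, beside 39.0% of all genes. The shift between these replicates was also averaged over the 2 groups, whether or not its sign was the same in both. In 13 of the 32 (40.6%) this average was larger in size than the difference between the genotypes, beside 49.9% of all genes. Examples are Exo1 (0.35 in controls and 0.62 in experimental samples), Bard1 (0.31 and 0.54) and Fance (0.32 and 0.60). Control replicate 2 was the lowest of the 8 arrays in 16 of the 32 genes, and experimental replicate 3 the highest in 14. These 2 counts were not made over all genes, so they are not shown to be particular to the list. The mean level over the 32 genes ran from 6.79 to 7.04 in controls and from 6.98 to 7.23 in experimental samples, which overlap.

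**Figure D3:**
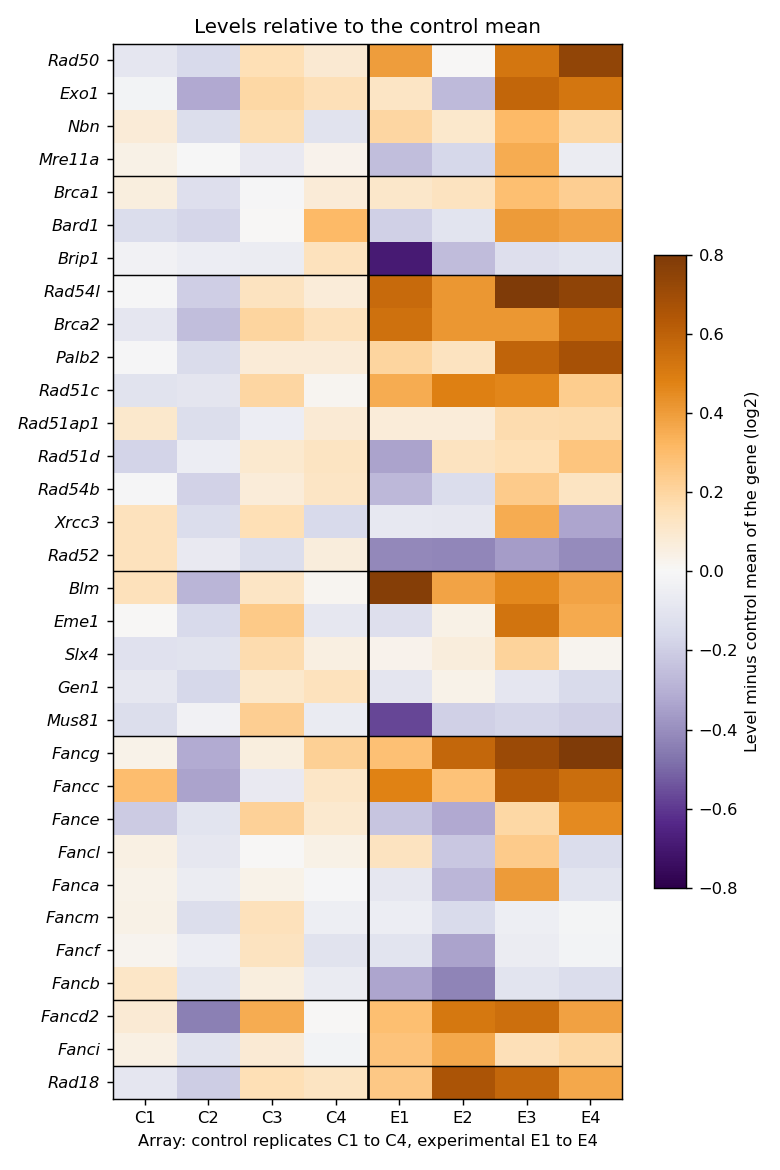
Level of each of the 32 genes in each array minus the gene's control mean (log2, colour scale from -0.8 to 0.8), with controls C1 to C4 left and experimental samples E1 to E4 right of the black line and roles separated by lines. Rad54l, Brca2, Blm and Fancg are above the control mean in all 4 experimental arrays, Rad52 is below it in all 4, and C2 holds the lowest value of 16 genes.

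Other genes of the pathway, from a separate list of 52 measured genes, had 4 higher and none lower (6 higher and 9 lower at an unadjusted limma p of 0.05), with a median of -0.00034. Rpa2 and Rpa1, subunits of the protein that coats resected single strands, rose. Rpa2 read 8.44, 8.19, 8.32 and 8.27 in controls and 9.26, 9.02, 9.07 and 8.95 in experimental samples (0.77 ± 0.10, adjusted p = 0.00731). Rpa1 rose by 0.59 ± 0.09 (adjusted p = 0.0143), and the third subunit gene Rpa3 differed by -0.06. Cenps, a histone-fold partner of Fancm, rose by 0.69 ± 0.11 (adjusted p = 0.0124), whereas Fancm itself did not pass. Helq, a helicase of crosslink repair, rose by 0.85 ± 0.16 (adjusted p = 0.0295). With the replicate block Rad51b passed as well (0.80, adjusted p = 0.00559), and Polh, a bypass polymerase, was lower (-0.51, adjusted p = 0.0269).

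End joining, the route that reseals breaks without a template, had no gene higher and 2 lower of 14 (2 higher and 3 lower at an unadjusted limma p of 0.05), with a median of -0.09. Lig4, which encodes its ligase, read 7.00, 6.70, 6.66 and 6.68 in controls and 5.36, 6.11, 5.50 and 5.74 in experimental samples. All experimental arrays were below all controls, and the fall was 2.12-fold (-1.08 ± 0.16, adjusted p = 0.0116). Polm, a polymerase of that route, fell by 0.46 on the log2 scale (SE 0.10, adjusted p = 0.0369, and 0.0533 with the replicate block). Prkdc, the DNA-dependent protein kinase, differed by 0.52 ± 0.14 (adjusted p = 0.0929) and passed with the block (0.0301).

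Lists of cell cycle genes bracketed the recombination genes. Replication genes had 12 of 16 higher and 1 lower, with a median of 0.96. The lower one was Tyms (-0.59, limma adjusted p = 0.0142), and Pcna (0.03), Rrm2 (-0.10) and Tk1 (0.13) did not pass. Mitosis genes had 8 of 15 lower and none higher (none at an unadjusted limma p of 0.05 either), with a median of -0.60. Mean levels of the replication list ran from 9.24 to 9.50 in controls and from 10.04 to 10.17 in experimental samples, and those of the mitosis list from 9.33 to 9.59 and from 8.67 to 9.15. Mean levels of B cell markers (6.82 to 7.97 against 5.86 to 6.50) and dendritic cell markers (7.13 to 7.21 against 5.95 to 6.46) also separated the groups, and erythroid markers (7.59 to 7.90 against 7.63 to 8.95) did not. On the log2 scale, 3′ over 5′ beta-actin probe sets, which track RNA integrity, came to 0.27 to 0.32 in controls and 0.34 to 0.54 in experimental samples, while the same measure of Gapdh overlapped (-0.14 to -0.09 and -0.16 to 0.03). The part of these in the differences of Rad54l and the other genes was not tested.

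**Figure D4:**
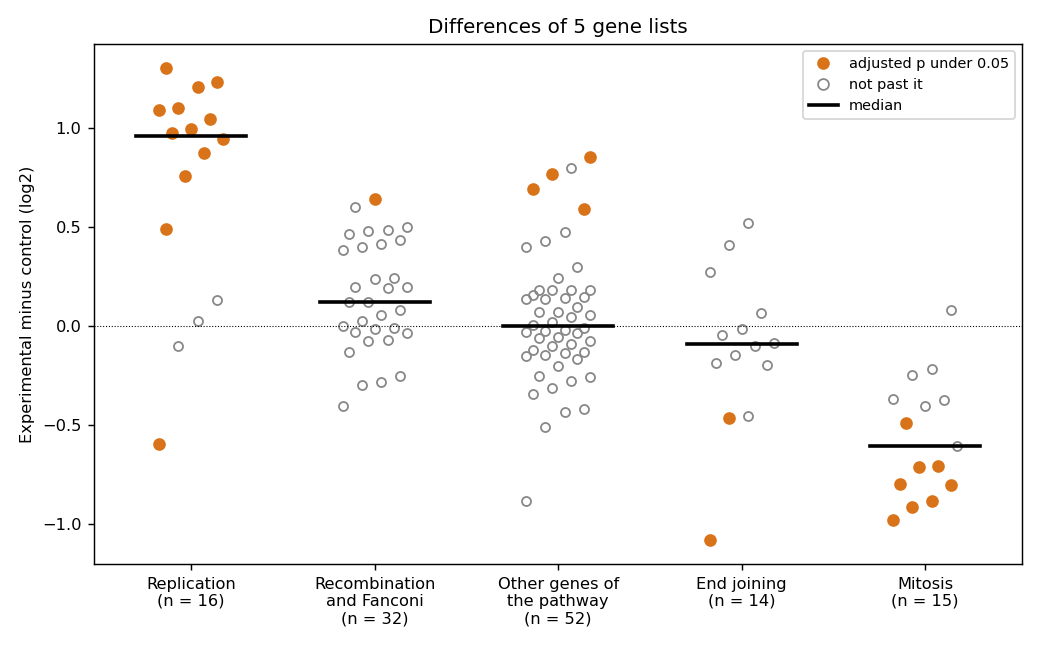
Experimental minus control differences (log2, y axis) of each measured gene in 5 lists, with filled points for genes past adjusted p 0.05, open points for the rest and a bar at each list's median. The medians step from 0.96 for replication through 0.12 for recombination and Fanconi genes and -0.00034 for other genes of the pathway to -0.09 for end joining and -0.60 for mitosis.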

How the data were processed

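The deposited table holds log2 values for 45101 probe sets in 8 arrays, made by the authors with RMA per the submitters' processing notes, which name no version. The sources used here do not say if the 8 arrays were normalized jointly. After 64 control probe sets were left out, 45037 entered a linear model of group alone (R 4.3.3, limma 3.58.1, eBayes), and p-values were adjusted by Benjamini-Hochberg over all of them. Of these, 34945 had 1 gene symbol, 932 several and 9160 none. Errors of differences are moderated standard errors, and the number of arrays limits the precision. The smallest p of a two-sided exact permutation test of 4 against 4 is 0.0286, reached by all 12 members whose groups do not overlap.

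The members and lists were chosen with earlier results of these data known. All 34 members were to be named, with the other pathway and end joining genes past the threshold, to at most 10 each. Rad51b, Polh, Prkdc and Rpa3 were named after their values were seen. Deviations from group means of same-numbered arrays correlated across probe sets at 0.20 to 0.26 for each of the 4 pairs, and the numbers were treated as pairing. Differently numbered arrays of the same code style correlated at 0.14 to 0.26 and those of the other style at -0.27 to -0.13. The fit was tested on simulated data whose arrays were drawn independently, without the shared deviations given above. That test cannot show how the fit behaves with such deviations. Alternatives were normalization, filters, variance models, array weights, probe set choice, blocks and leaving out each array.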

Additional observations from a re-analysis of the deposited data

Results flagged for a closer look

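Among the 64 groups of 4 arrays (32 genes in 2 groups), 2 held an array whose gap to the nearest other exceeded Dixon's 95% critical value as a share of the range. Chance flags about 1 in 20 such groups. Mus81 read 6.39 in experimental replicate 1 against 6.77 to 6.79 in the other 3. Brip1 read 6.31 in control replicate 4 against 6.12 to 6.15 in the other 3.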

How the results depend on the processing

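The median difference of the 32 genes stayed positive and within the spread between replicates of its main value of 0.12 in all 19 alternatives. The number of them higher (1) was 2 with quantile normalization (Rad54l and Fancg), 5 when probe sets were averaged per gene (Rad54l, Rad18, Brca2, Fancg and Rad50), 4 with replicate number as a block and 4 with code style as a block (Rad54l, Fancg, Brca2 and Palb2). In replicates 1 and 2 alone it was 0, as in replicates 3 and 4 alone, fits with fewer arrays. With the most variable probe set it was 1, Rad18 in place of Rad54l. The number lower (0) was 1, Rad52, among probe sets above the median level, with array weights and with the code style block. Without 1 array, 0 to 2 were higher and 0 lower, and the median was 0.06 to 0.19. Calls over all genes (632) were 1124 with the replicate block, 1282 with the code style block, 76 within replicates 1 and 2, 261 within replicates 3 and 4, and 239 to 915 without 1 array. Other pathway genes higher (4) were 5 with array weights or the replicate block and 6 with the code style block. They fell to 0 within replicates 1 and 2 and within replicates 3 and 4, and were 2 to 5 without 1 array. Those lower (0) were 1 with array weights or the replicate block, 2 with the most variable probe set, 3 with the mean of probe sets or the code style block, and 0 to 1 without 1 array. End joining genes lower (2) were 3 among probe sets above the median level, with array weights and with the code style block. They were 1 with trended and robust variance, the replicate block and within replicates 3 and 4. Within replicates 1 and 2 they were 0, and without 1 array 1 to 2. Those higher (0) were 1 with either block and 0 to 1 without 1 array. Genes with an E2F motif rose from 4 to 21 with the 6-base core, which is shorter. No called difference of the 32 genes changed sign. Where no construction is named, the cause was not tested. No background call was used, so which dim probe sets lie near background was not tested.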
